A study of Mus musculus with 8 samples.

Results

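The S100 genes encode small calcium-binding proteins. The 10 genes described here, S100a1, S100a3, S100a4, S100a6, S100a8, S100a9, S100a10, S100a11, S100a13 and S100b, were taken by symbol from the 22180 mouse genes on the arrays, and each lay on 1 array row that carried no other gene symbol. Their transcripts were measured on 8 Affymetrix arrays in samples described as hepatic macrophages, in which markers of other liver cells were bright too. Of the arrays, 4 came from mice given recombinant CPS1 (rCPS1) and 4 from mice given recombinant transferrin (rTF). CPS1 is a urea cycle enzyme of hepatocyte mitochondria, and transferrin is the iron carrier of plasma. All animals were FVB/N males 8 weeks old, and all received acetaminophen, a drug whose overdose kills hepatocytes, at 350 mg/kg into the abdominal cavity 12 h after the protein. The rCPS1 group received 50 µg of protein in the tail vein and the rTF group 25 µg, so the kind of protein and its amount cannot be told apart. No arrays from uninjured or uninjected mice were analysed here. Every sample title begins with Mouse1, so it is not settled that the 4 arrays of a group came from separate animals, and the spread behind the p-values may be technical.

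S100 proteins form dimers and bind calcium through paired EF-hand loops, which exposes a surface that grips partner proteins. S100A8 and S100A9 join as calprotectin, an abundant cytosolic complex of neutrophils and of monocytes newly arrived from blood. Released calprotectin binds zinc and manganese and is a ligand of TLR4. S100A4 and S100A6 are found in motile, fibroblastic and myeloid cells, where S100A4 binds non-muscle myosin. S100A10 pairs with annexin A2 at the plasma membrane, and S100A11 with annexin A1. S100A10 differs from the rest of the family in that it no longer binds calcium. In the injured liver, resident Kupffer cells share the tissue with infiltrating monocytes and neutrophils.

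In the RefSeq gene order of GRCm38.p6, 9 of the 10 genes lie on chromosome 3 and S100b lies on chromosome 10. The order on chromosome 3 is S100a1, S100a13, S100a3, S100a4, S100a6, S100a8, S100a9, S100a11 and S100a10. No annotated gene separates S100a8 from S100a9, whereas 83 annotated genes separate S100a9 from S100a11. S100a1 and S100a13 are neighbours transcribed in opposite directions. For the array design the build is not given in the sources used here, and array rows are therefore described without coordinates. Promoter windows were found in RefSeq for 9 of the 10 genes. The windows of S100a8, S100a9, S100a4 and S100a6 are printed because these genes had the largest differences between the groups. Each runs from 250 bases before the annotated start to 30 bases after it, on GRCm38.p6, and is written 5′ to 3′ on the strand of the gene. Capitals mark 3 motifs searched on both strands, namely TATAAA (core of the TATA box), TTGCNNAA (C/EBP) and GAGGAA (core of PU.1 sites, TTCCTC on the other strand).
S100a8, chr3:90668821-90669100, plus strand: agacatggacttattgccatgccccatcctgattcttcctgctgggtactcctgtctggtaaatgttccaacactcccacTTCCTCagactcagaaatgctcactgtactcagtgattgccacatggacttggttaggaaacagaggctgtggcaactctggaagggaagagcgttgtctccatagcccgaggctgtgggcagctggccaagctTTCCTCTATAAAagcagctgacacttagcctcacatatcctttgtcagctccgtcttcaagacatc
S100a9, chr3:90695692-90695971, minus strand: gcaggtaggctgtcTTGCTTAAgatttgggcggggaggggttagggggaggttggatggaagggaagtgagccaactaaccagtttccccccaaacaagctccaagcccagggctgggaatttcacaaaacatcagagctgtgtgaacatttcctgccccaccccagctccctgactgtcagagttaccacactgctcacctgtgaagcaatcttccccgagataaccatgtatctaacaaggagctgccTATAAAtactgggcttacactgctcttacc
S100a4, chr3:90603520-90603799, plus strand: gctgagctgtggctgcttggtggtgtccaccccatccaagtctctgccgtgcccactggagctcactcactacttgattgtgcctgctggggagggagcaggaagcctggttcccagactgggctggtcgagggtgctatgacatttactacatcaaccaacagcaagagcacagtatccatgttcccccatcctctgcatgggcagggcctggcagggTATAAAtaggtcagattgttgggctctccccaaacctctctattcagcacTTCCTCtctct
S100a6, chr3:90612644-90612923, plus strand: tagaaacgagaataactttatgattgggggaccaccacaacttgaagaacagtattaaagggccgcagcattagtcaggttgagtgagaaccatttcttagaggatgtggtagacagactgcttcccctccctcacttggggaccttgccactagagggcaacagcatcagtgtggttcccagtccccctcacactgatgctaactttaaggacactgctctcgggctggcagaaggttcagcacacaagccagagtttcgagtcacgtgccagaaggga

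The TATAAA match began at base -30 in the S100a8 window and at base -31 in the S100a4 window, counted from the annotated start. In the S100a9 window it began at base 1, the annotated start itself. In S100a8 the letters TTCCTC lie directly before TATAAA without overlap, and the same letters occur a second time at base -170. The S100a9 window held TTGCNNAA at base -236 and no GAGGAA on either strand. The S100a6 window held none of the 3 motifs. Over 32851 RefSeq windows of the same length, 13.1% held TATAAA, 10.4% held TTGCNNAA and 26.0% held GAGGAA. These matches describe letters and show neither binding nor use of a site.

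Of the 10 S100 transcripts, 9 were lower and 1 was higher in the rCPS1 group on the log2 scale, and none passed limma's test after adjustment over all genes. Adjusted p-values ran from 0.862 for S100a9 and 0.887 for S100a6 to 0.989 for S100a13. Over the 22180 genes tested, 0 had an adjusted p under 0.05 (0.0%). An unadjusted p under 0.05 was found for 5 of the 10 members, all lower, namely S100a9, S100a6, S100b, S100a8 and S100a4. The background for that count was 2.79% of all genes lower and 1.88% higher, or 619 and 416 genes, and 731 and 304 when each array was centred on its median. The arrays of the groups did not overlap for 4 members, all lower, against 1.97% of all genes lower and 0.947% higher. The median log2 difference was -0.29 over the 10 members and -0.018 over all genes tested, of which 54.4% lay below 0. These genes were chosen with earlier results of these arrays known, so the counts are descriptions and carry no test of the list.

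**Figure D1:**
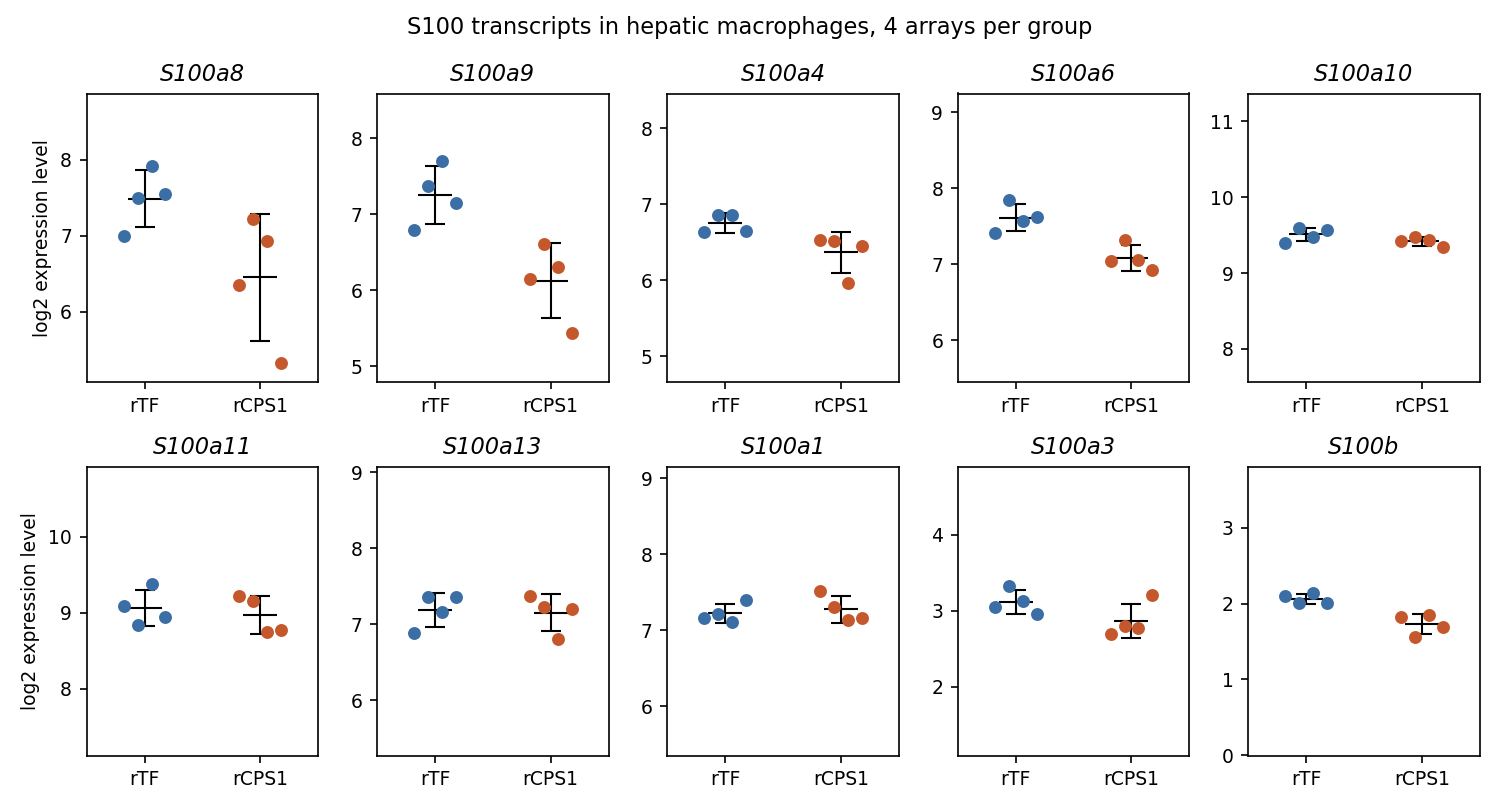
Log2 expression level of each S100 transcript in the 4 rTF arrays (blue) and the 4 rCPS1 arrays (orange). Each point is an array, the long bar is the group mean and the whiskers are ± 1 SD, and every panel spans the same number of log2 units around its own mean. The groups are apart for S100a9, S100a6, S100a4 and S100b, and they overlap for the other 6.

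The calprotectin subunit genes had the largest differences among the members. S100a9 (array row 17407363) had log2 levels of 6.79, 7.37, 7.70 and 7.15 in rTF replicates 1 to 4, and of 6.15, 6.61, 6.31 and 5.44 in rCPS1 replicates 1 to 4. The groups did not overlap, and rCPS1 replicate 4 was the lowest of the 8 arrays. The means were 7.25 ± 0.38 (SD, n = 4) and 6.13 ± 0.50 (SD, n = 4), a log2 difference of -1.13 ± 0.26 (SE) with a 95% interval from -1.70 to -0.55, which is 2.18-fold lower. In limma the unadjusted p was 0.00149, the 28th smallest of all genes, and the adjusted p was 0.862. The two-sided exact permutation test gave p = 0.0286, the smallest that 4 arrays against 4 allow.

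S100a8 (array row 17399823) encodes the other subunit. Its log2 levels were 6.998, 7.49, 7.92 and 7.54 in rTF replicates 1 to 4, and 6.35, 7.21, 6.94 and 5.32 in rCPS1 replicates 1 to 4. The groups overlapped, because rCPS1 replicate 2 lay above rTF replicate 1, while the other 3 rCPS1 arrays lay below every rTF array. The means were 7.49 ± 0.38 and 6.45 ± 0.84 (SD, n = 4 each), a log2 difference of -1.03 ± 0.37 (SE) with a 95% interval from -1.85 to -0.21, or 2.05-fold lower. The adjusted limma p was 0.980, the unadjusted p was 0.0186 and the exact permutation p was 0.0571. S100a8 rested on rCPS1 replicate 4 for much of its size, since without that array the log2 difference was -0.66. Without rTF replicate 3 it was -0.89 with an unadjusted limma p of 0.0532. For S100a9 the difference stayed between -1.29 and -0.90 when any one array was left out.

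The levels of the calprotectin genes moved together from array to array within the groups. With values centred on their group means over the 8 arrays, Pearson's r between S100a8 and S100a9 was 0.953 and Spearman's rho 0.905. An exact permutation within groups over 576 arrangements gave p = 0.00347 for r and p = 0.0122 for rho, or 0.0139 and 0.0488 after Benjamini-Hochberg adjustment over the 4 gene pairs tested. Without rCPS1 replicates 2 and 4, the arrays farthest from the median of S100a8, r was 0.886. Over all 8 arrays each gene had a higher r with other genes, up to 0.986 for S100a8 (Stfa2l1) and 0.995 for S100a9 (Dcn). The log2 ratio of S100a8 to S100a9 differed between the groups by 0.093 (exact permutation p = 0.743), a comparison chosen after the values were seen.

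S100a6 and S100a4 had smaller differences, and in both the groups did not overlap. S100a6 (array row 17399812) encodes calcyclin, a binding partner of annexins and of the Cacybp protein. It measured 7.42, 7.85, 7.56 and 7.62 on the log2 scale in rTF replicates 1 to 4, and 7.04, 7.32, 7.05 and 6.92 in rCPS1 replicates 1 to 4. The highest rCPS1 array, replicate 2, lay just under the lowest rTF array, replicate 1. The means were 7.61 ± 0.18 and 7.08 ± 0.17 (SD, n = 4 each), a log2 difference of -0.53 ± 0.13 (SE) with a 95% interval from -0.82 to -0.23, or 1.44-fold lower. Its adjusted limma p was 0.887, its unadjusted p 0.00272 and its exact permutation p 0.0286.

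S100a4 (array row 17399802) encodes the myosin-binding protein also known as metastasin or fibroblast-specific protein. Its log2 levels were 6.63, 6.87, 6.86 and 6.65 in rTF replicates 1 to 4, and 6.53, 6.52, 5.96 and 6.46 in rCPS1 replicates 1 to 4. The lowest array, rCPS1 replicate 3, stood apart from the other rCPS1 arrays, which lay within a narrow range just under the rTF arrays. The means were 6.75 ± 0.13 and 6.37 ± 0.27 (SD, n = 4 each), a log2 difference of -0.39 ± 0.15 (SE) with a 95% interval from -0.72 to -0.055. The adjusted limma p was 0.980, the unadjusted p was 0.0264 and the exact permutation p was 0.0286. The difference shrank to -0.25 once rCPS1 replicate 3 was left out, and limma's unadjusted p was then 0.0637. Without rTF replicate 2 the unadjusted p was 0.0621, and without rTF replicate 3 it was 0.0645. On chromosome 3 the genes S100a4, S100a6, S100a8 and S100a9 follow one another in the order of the members. Among the other S100 genes between them, S100a5 differed by 0.078 and S100a7a by -0.076 on the log2 scale, and both were dim (named for their position after the values were seen).

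**Figure D2:**
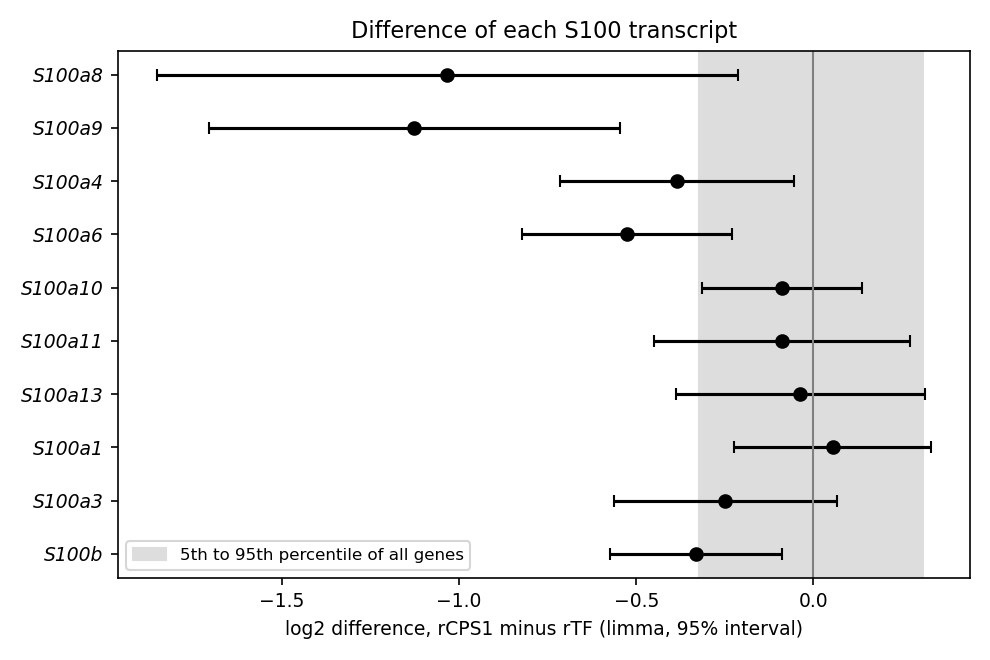
Log2 difference of each S100 transcript, rCPS1 minus rTF, with the 95% interval from limma (4 arrays a group). The grey band spans the 5th to 95th percentile of the differences of all 22180 genes, from -0.32 to 0.31. S100a8, S100a9, S100a6 and S100a4 lie to its left, as does S100b, just beyond its edge.

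S100a10 and S100a11 differed little between the groups. S100a10 (array row 17400000) encodes p11, the light chain of the annexin A2 tetramer. It measured 9.40, 9.60, 9.47 and 9.56 on the log2 scale in rTF replicates 1 to 4, and 9.42, 9.48, 9.43 and 9.34 in rCPS1 replicates 1 to 4. The groups overlapped, with a log2 difference of -0.088 ± 0.10 (SE) and a 95% interval from -0.31 to 0.14. With 1 array left out its difference ran from -0.13 to -0.058, the latter without rTF replicate 2. S100a11 (array row 17399995) encodes calgizzarin, a partner of annexin A1. It ranged from 8.84 to 9.38 with rTF and from 8.75 to 9.22 with rCPS1, a log2 difference of -0.089 ± 0.16 (SE) with a 95% interval from -0.45 to 0.27. Both had an adjusted limma p of 0.98, and the intervals leave room for a modest difference in either direction. S100a11 has an annotated pseudogene copy, whose RNA the array may not separate from it.

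Of 22 listed intracellular partners of S100 proteins, 18 were measured, of which 11 were lower and 7 higher with rCPS1, with a median log2 difference of -0.027. An unadjusted p under 0.05 was found for 2 of the 18, both lower, against 2.79% of all genes lower and 1.88% higher, and 0 passed after adjustment. These were the annexin genes paired with S100a10 and S100a11. Anxa1 encodes annexin A1, a membrane-binding protein known for restraining inflammation. It averaged 10.08 ± 0.15 with rTF and 9.70 ± 0.22 with rCPS1 (SD, n = 4 each), a log2 difference of -0.38 ± 0.14 (SE, limma adjusted p = 0.980, unadjusted p = 0.0205). Anxa2 averaged 7.85 ± 0.18 and 7.39 ± 0.34, a log2 difference of -0.46 ± 0.17 (SE, limma adjusted p = 0.980, unadjusted p = 0.0249). Fgf1, a growth factor gene whose product is exported with S100A13, differed by 0.67 ± 0.41.

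No correlation from array to array was detectable between the annexin genes and their S100 partners. The centred values of S100a10 and Anxa2 had r = 0.029 (rho = -0.048) and those of S100a11 and Anxa1 had r = 0.012 (rho = 0.119), each over 8 arrays, with exact permutation p of 0.936 and 0.979 for r and 0.931 and 0.814 for rho. S100a6 and Cacybp had r = 0.405 (p = 0.431 by the same exact permutation test) and rho = 0.405 (p = 0.382). Adjusted over the 4 pairs, these p-values for r were 0.979, 0.979 and 0.862, and those for rho were 0.931, 0.931 and 0.764. Without the 2 arrays farthest from the median of the S100 gene, r was 0.278, 0.282 and 0.22. The log2 ratio of S100a10 to Anxa2 was higher with rCPS1 by 0.37 and that of S100a11 to Anxa1 by 0.29, with exact permutation p of 0.171 and 0.257. For S100a6 to Cacybp the ratio differed by -0.49 (exact permutation p = 0.0857). These ratios were compared after the values were seen, and each had an adjusted p of 0.343 over the 4 pairs.

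**Figure D3:**
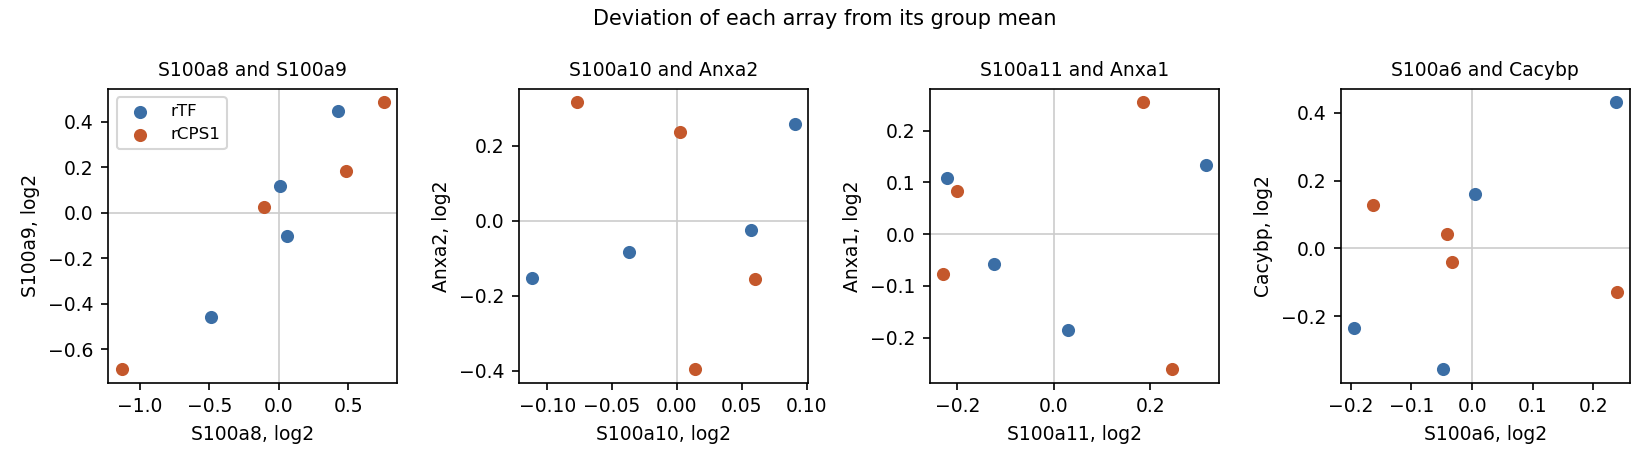
Deviation of each array from its group mean on the log2 scale for 4 gene pairs, S100 gene on the x axis and partner on the y axis, with 4 rTF arrays in blue and 4 rCPS1 arrays in orange. The points of S100a8 and S100a9 lie along a rising line (r = 0.953), and those of S100a10 with Anxa2, S100a11 with Anxa1 and S100a6 with Cacybp scatter (r = 0.029, 0.012 and 0.405).

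S100a13 and S100a1 were near the same level in the groups. S100a13 (array row 17399769), whose protein takes part in the export of FGF1 and interleukin 1 alpha, ranged from 6.89 to 7.36 on the log2 scale with rTF and from 6.81 to 7.38 with rCPS1. The rCPS1 range covered the whole rTF range, and the log2 difference was -0.037 ± 0.16 (SE), with a 95% interval from -0.39 to 0.31. S100a1 (array row 17407354), best known for its role in the calcium handling of heart muscle, measured 7.16, 7.21, 7.11 and 7.40 in rTF replicates 1 to 4, and 7.51, 7.30, 7.13 and 7.16 in rCPS1 replicates 1 to 4. It was the member that averaged higher with rCPS1, by 0.054 ± 0.13 (SE) on the log2 scale, with a 95% interval from -0.22 to 0.33. Their adjusted limma p-values were 0.989 and 0.988, and with single arrays left out their differences took either sign.

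S100b and S100a3 were dim, with mean levels below 3.60, the median of all array rows. S100b (array row 17234494) is a marker of astrocytes and other glia. It measured 2.10, 2.01, 2.14 and 2.01 on the log2 scale with rTF, and 1.83, 1.56, 1.85 and 1.69 with rCPS1, in the order of replicates 1 to 4. The groups did not overlap, and the difference was -0.33 ± 0.11 (SE), with a limma adjusted p of 0.980, an unadjusted p of 0.0123 and an exact permutation p of 0.0286. The level lay above only 14.2% of all array rows, so it is not settled that the probes detected S100b RNA. S100a3 (array row 17399797), the gene of a hair cuticle protein, ranged from 2.96 to 3.33 with rTF and from 2.70 to 3.20 with rCPS1. In 3 of the 4 rCPS1 arrays it lay below every rTF array, and the log2 difference was -0.25 ± 0.14 (SE, limma adjusted p = 0.980, unadjusted p = 0.109). Without rCPS1 replicate 4 the difference was -0.36 and the unadjusted p was 0.0198. With the dim rows left out of the fit, 7 of the 8 members that remained were lower, and 4 had an unadjusted p under 0.05, all lower, against 2.83% lower and 2.09% higher of the 12384 genes in that fit.

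Of 7 other S100 family genes measured, S100a5, S100a7a, S100a7l2, S100g and S100z lay below the median of all rows, and S100a14 and S100a16 above it. S100a16, chosen after its value was seen, averaged 6.02 ± 0.12 with rTF and 6.06 ± 0.39 with rCPS1 (SD, n = 4 each). In the rCPS1 group 5 of the 7 were lower and 2 higher, with a median log2 difference of -0.076, and none had an unadjusted p under 0.05. S100g, the vitamin D dependent calbindin of the gut, differed by -0.38 ± 0.20 and S100a14 by -0.22 ± 0.18 (SE). All 7 S100-fused genes of the epidermis, such as Rptn and Hrnr, also lay below that median. Of these, 5 were lower and 2 higher, and none had an unadjusted p under 0.05.

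Among 12 genes for receptors and co-receptors of secreted S100 proteins, 7 were lower and 5 higher with rCPS1, with a median log2 difference of -0.088. At an unadjusted p under 0.05 there were 2 of the 12, both lower with groups that did not overlap, and 0 passed after adjustment. Of all genes, 2.79% were lower by that p and 1.97% were lower without overlap. Cd33, a sialic acid receptor of myeloid cells that S100A9 can engage, measured 8.59, 8.75, 8.81 and 8.51 in rTF replicates 1 to 4, and 8.15, 8.30, 8.04 and 7.64 in rCPS1 replicates 1 to 4. Its lowest array was rCPS1 replicate 4, as for S100a8, S100a9, S100a6 and S100a10. The log2 difference was -0.63 ± 0.15 (SE, limma adjusted p = 0.862, unadjusted p = 0.0020). Cd14, the co-receptor that hands lipopolysaccharide to TLR4, averaged 10.63 ± 0.085 and 10.25 ± 0.15 (SD, n = 4 each), a log2 difference of -0.38 ± 0.11 (SE, limma adjusted p = 0.980, unadjusted p = 0.00754). Ager, the gene for RAGE, a receptor of several S100 proteins, differed by 0.33 ± 0.16. Tlr4 itself, chosen after its value was seen, differed by -0.12 ± 0.12.

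Transcription factor genes with a known link to S100a8 and S100a9 or to myeloid cells differed little. Of 12, 7 were lower and 5 higher, with a median log2 difference of -0.057, and none had an unadjusted p under 0.05. The smallest p-values belonged to Gfi1, a repressor active in granulocyte development (-0.30 ± 0.15, SE), and to Nr3c1, the glucocorticoid receptor (0.22 ± 0.12). Every rCPS1 array lay above every rTF array for Nr3c1, which ran from 8.75 to 9.07 with rTF and from 9.09 to 9.28 with rCPS1. It was the only 1 of the 12 without overlap, against 0.947% of all genes higher and 1.97% lower. Its limma p was 0.0827 unadjusted and 0.980 adjusted. Cebpe, the C/EBP factor of late granulocyte development, was dim and differed by -0.22 ± 0.19.

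Most markers of neutrophils and monocytes were lower in the rCPS1 arrays as well. The neutrophil list, which held no S100 gene, had 24 of 25 genes measured, of which 21 were lower and 3 higher, with 12 lower at an unadjusted p under 0.05, against 2.79% of all genes, and 0 after adjustment. Its mean log2 level ran from 5.73 to 6.16 in the rTF arrays and from 5.06 to 5.54 in the rCPS1 arrays, lowest in rCPS1 replicate 4. Of its members 7 lay below the median of all rows, namely Camp, Elane, Mpo, Prtn3, Stfa2, Stfa3 and Padi4. The monocyte list had 16 of 17 genes measured, 15 lower and 1 higher, with 9 lower at an unadjusted p under 0.05, against the same 2.79% of all genes. Its mean ran from 8.07 to 8.37 with rTF and from 7.56 to 7.69 with rCPS1. The marker lists, here and below, were written with earlier results of these arrays known, so their counts carry no test. The part of these cell types in the S100 differences was not tested. In bulk RNA, fewer cells of a type and less RNA per cell cannot be told apart.

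The means of the other marker lists overlapped between the groups. Kupffer cell genes, all 13 above the median row, had a mean of 8.71 to 9.31 with rTF and 8.85 to 9.46 with rCPS1, with 2 lower and 11 higher. T and NK cell genes had a mean of 6.24 to 7.47 with rTF and 5.89 to 6.41 with rCPS1, and 8 of 9 were lower. The mean of 7.47 was that of rTF replicate 2 alone, and the other rTF arrays ran from 6.24 to 6.45. The median log2 difference was -0.51, against -0.46 for the neutrophil and -0.48 for the monocyte genes. The difference of list means was -0.49, against -0.61 for the neutrophil and -0.52 for the monocyte genes. Il7r, Nkg7 and Cd5 were lower at an unadjusted p under 0.05, 3 of the 9 T and NK genes, against 2.79% of all genes. The groups did not overlap for Il7r alone, against 1.97% of all genes lower without overlap. Hepatocyte genes ran from 6.50 to 7.26 and from 6.54 to 7.01, and sinusoidal endothelial genes from 11.01 to 11.34 and from 11.09 to 11.27. The endothelial mean lay above the Kupffer mean in every array, and the S100 levels cannot be assigned to macrophages alone. Stellate cell and fibroblast genes ran from 4.49 to 5.53 with rTF and from 4.63 to 5.28 with rCPS1, with 8 of 10 lower. Bile duct genes ran from 3.51 to 3.73 and from 3.71 to 3.86, with 1 of 5 lower. No gene of the Kupffer, hepatocyte, endothelial, stellate and fibroblast or bile duct lists had an unadjusted limma p under 0.05. Of all genes, 2.79% were lower and 1.88% higher by that p, and 54.4% had a difference below 0. The part of the listed cell types in the S100 values was not tested.

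**Figure D4:**
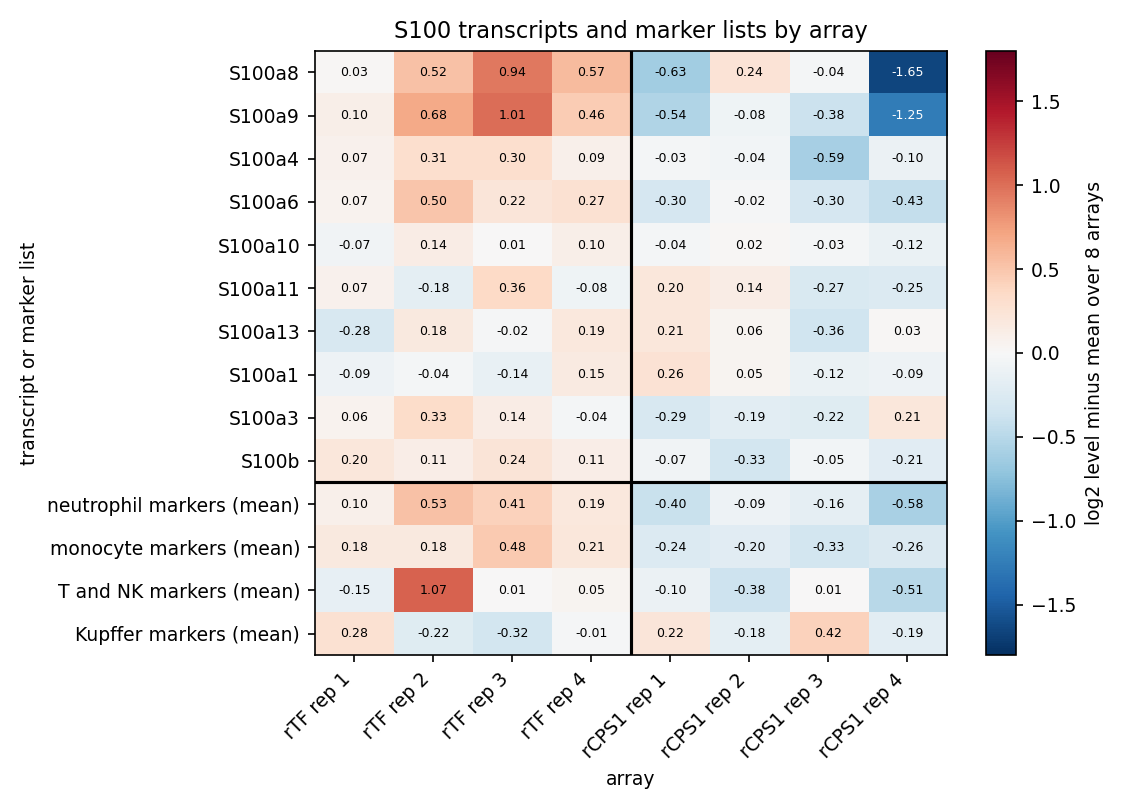
Log2 level minus the mean over 8 arrays, for each S100 transcript (upper rows) and for the mean of 4 marker lists (lower rows), with a column for each array. S100a8, S100a9, S100a4, S100a6, S100b, the neutrophil mean and the monocyte mean are above their own average in every rTF array. The lowest array is rCPS1 replicate 4 for S100a8, S100a9, S100a6, S100a10, the neutrophil mean and the T and NK mean.

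The genes whose array-to-array pattern was most like that of each member with an unadjusted p under 0.05 were sought among 17441 genes over the 8 arrays, after removing the group means. For S100a8 they were Stfa2l1 (r = 0.986), a stefin A gene, Rpgr (0.969) and the neutrophil chemokine receptor gene Cxcr2 (0.968). Stfa2l1 differed by -1.09 and Cxcr2 by -1.52 between the groups on the log2 scale, while Rpgr differed by 0.12. For S100a9 they were the fibroblast proteoglycan gene Dcn (0.995), the hepatocyte enzyme gene Pon1 (0.980) and the smooth muscle actin gene Acta2 (0.975), which differed between the groups by -0.25, 0.11 and -0.037. For S100a4 they were Junb (0.983), Jund (0.979) and Rprd2 (0.974), for S100a6 Arfip1 (0.987), Reck (0.984) and Tk2 (0.979), and for S100b Zfp704 (0.958), Mab21l4 (0.947) and Epgn (0.941). These r values are the highest of many over few arrays and describe these arrays only.

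**Figure D5:**
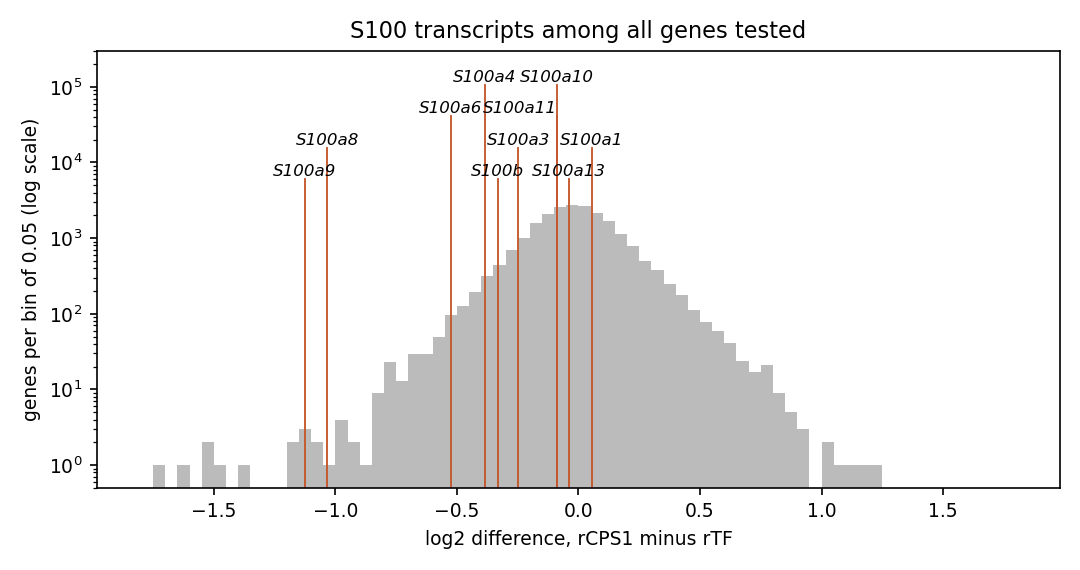
Number of genes by log2 difference, rCPS1 minus rTF, in bins of 0.05 with a logarithmic y axis, over all 22180 genes tested, with the 10 S100 transcripts marked by lines. S100a9 at -1.13 and S100a8 at -1.03 lie in the far lower tail, with under 0.1% of genes below either, and S100a10, S100a11, S100a13 and S100a1 lie near the centre.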

How the data were processed

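The arrays held biotinylated cDNA made from total RNA. The deposited table holds log2 values on the scale of RMA, per the submitters' processing notes, where limma is named as well. RMA corrects the background, gives all arrays 1 distribution by quantile normalization and sums up the probes of a row, so that a change common to most genes cannot be seen. For the isolation of the macrophages and for probe filters, the sources used here give nothing.

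Of 41345 array rows, 23521 had exactly 1 gene symbol. For a gene with several rows the row of highest mean was used, which left 22180 genes, dim ones included. The test was limma's (version 3.58.1, R 4.3.3), two-sided and without covariates, with Benjamini-Hochberg adjustment at 0.05. Single members were also compared by an exact permutation test over all 70 assignments. The fit was tested on simulated data. Precision is limited by having 4 arrays a group, which gave a median standard error of 0.15 for a difference. Correlations used values centred on group means.

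The members and the 13 other gene lists were chosen with earlier results of these data known. Named were all members, the genes of smallest p (up to 3) of a list, and the 3 genes most correlated with each member of unadjusted p under 0.05, leaving out predicted, microRNA, small nucleolar RNA and chemosensory receptor genes. Genes outside that rule are marked. Promoter windows are RefSeq's (GRCm38.p6), and the motifs were chosen after the results were known. Alternatives were a filter on dim rows, trended and robust variance, array weights, a block for the replicate number, further quantile normalization, median-centring, gene means over rows, all array rows, and leaving out each array.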

Additional observations from a re-analysis of the deposited data

Results flagged for a closer look

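Dixon's ratio, which compares an extreme array with the other 3 of its group, set 1 array apart in 7 of 78 groups of values, where chance at 1 in 20 would give 3.9. S100a4 was at 5.96 in rCPS1 replicate 3 (log2, the other rCPS1 arrays 6.46 to 6.53). In rTF replicate 1, S100g was at 2.75 (others 1.85 to 1.96) and S100z at 2.11 (1.62 to 1.69), both below the median of all rows. Nr3c1 was at 8.75 in rTF replicate 2 (9.01 to 9.07). Among list means, the transcription regulator mean was at 7.98 in rCPS1 replicate 3 (8.05 to 8.06), the monocyte mean at 8.37 in rTF replicate 3 (8.07 to 8.10) and the T and NK cell mean at 7.47 in rTF replicate 2 (6.24 to 6.45).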

How the results depend on the processing

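No member passed after adjustment under any of the 16 alternatives (smallest limma adjusted p 0.611), so the counts concern direction and unadjusted p-values. With 1 array left out, 8 to 10 of the 10 members were lower, 3 to 6 had an unadjusted p under 0.05 (3 without rTF replicate 3, where S100a8 and S100a4 were lost), 4 to 5 had groups that did not overlap (3 arrays against 4), and the median log2 difference ran from -0.34 to -0.23. In those fits 2.38% to 3.21% of all genes were lower and 1.56% to 2.39% higher at an unadjusted p under 0.05, and 3.05% to 3.82% were lower and 1.75% to 2.51% higher without overlap. Over the alternatives 5 of 158 differences of single members turned sign, all near 0: S100a1 at -0.024 without rCPS1 replicate 1, S100a11 at 0.016 without rTF replicate 3, and S100a13 at 0.017 without rTF replicate 2, 0.020 without rTF replicate 4 and 0.077 without rCPS1 replicate 3. The range with 1 array left out was -0.024 to 0.11 for S100a1, -0.17 to 0.016 for S100a11 and -0.14 to 0.077 for S100a13. With the replicate block 9 members were lower, 5 had an unadjusted p under 0.05 (all genes 2.48% lower and 2.02% higher) and the median difference was -0.29. Over all genes, same-numbered arrays deviated from their group means with r from -0.12 to 0.025, and 0 of 4 rTF arrays correlated best with the rCPS1 array of the same number. Quantile normalization gave a median of -0.28 and median-centring -0.31. Dim rows limit S100a3 and S100b, which lay below the median of all rows.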
